A study of Homo sapiens with 16 samples.

Results

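The genes described here are 35 regulators of pre-mRNA splicing: the SR proteins SRSF1 to SRSF12 with their relatives TRA2A and TRA2B (14 genes), the CDC-like kinases CLK1 to CLK4 (4 genes), and 17 heterogeneous nuclear ribonucleoproteins (HNRNPA0, HNRNPA1, HNRNPA2B1, HNRNPA3, HNRNPAB, HNRNPC, HNRNPD, HNRNPF, HNRNPH1, HNRNPH2, HNRNPH3, HNRNPK, HNRNPM, HNRNPR, HNRNPU, HNRNPUL1 and HNRNPUL2). They were taken by gene symbol, and all 35 were found among 56527 symbols. SRSF8, SRSF10, CLK2 and HNRNPH2 each had a second gene identifier at 0 counts in every library, and the identifier with counts was used. The second identifier of SRSF8 nevertheless had an FPKM value in every library, from 5.74 to 18.1, so the FPKM of SRSF8 is uncertain.

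SR proteins bind exonic RNA and mostly promote the use of the exon, and they act through a domain rich in arginine and serine that is phosphorylated by the CDC-like kinases and by SRPK1. hnRNPs coat the nascent transcript and often oppose SR proteins, pairing around exons such as those of CD44, BCL2L1 and PKM. Many of these genes control their own level. Excess protein brings an exon with a premature stop codon (a poison exon) into its own mRNA, and that mRNA is then removed by nonsense-mediated decay. In pancreatic cancer cells, gemcitabine sensitivity has been linked to the splicing of PKM, MKNK2 and other targets of these factors.

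Poly-A RNA was sequenced from MiaPaCa2 and PANC1 (Mia-PaCa-2 and PANC-1), established lines of human pancreatic ductal adenocarcinoma, after 24 h in 4 conditions with 2 libraries each. The conditions were no drug (control), 40 nM gemcitabine (a deoxycytidine analog that stalls DNA replication), 50 µM genistein (an isoflavone), and genistein together with gemcitabine (co-treatment). The labels name no engineered allele in either line. The study's methods call the replicates biological, without saying what was repeated, and p-values measure the spread between these libraries. The design asks what each drug changed, what genistein changed on top of gemcitabine, and whether the lines differed.

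The 16 libraries held 12943482 to 31991860 counts. The epithelial keratins KRT8 and KRT18 were at 369 FPKM or more (fragments per kilobase of transcript, scaled to library size) in every library, and EPCAM and CDH1 were near 0 in MiaPaCa2. The mesenchymal gene VIM was higher, at 2336 to 3875 FPKM in MiaPaCa2 and 1398 to 2735 in PANC1. CDH2 was near 0 in MiaPaCa2 and at 8.06 to 13.0 in PANC1, and ZEB1 did not exceed 5.15 in either line. Of the 3 leukocyte markers PTPRC and CD3E did not exceed 0.024 FPKM while CD68, a lysosomal protein, was at 14.2 to 37.6 in MiaPaCa2 and 108.3 to 221 in PANC1. Among endothelial markers CDH5 reached 1.72 FPKM in MiaPaCa2, and PECAM1 and VWF did not exceed 0.078. The acinar and islet genes PRSS1, CPA1, INS and GCG were listed at 0 throughout. Libraries differed in how counts followed the GC content of genes. The log2 slope per 10 percentage points of GC was -0.23 and -0.14 in the MiaPaCa2 controls against 0.14 and 0.06 after gemcitabine, and 0.29 and -0.07 in the PANC1 controls. The 34 genes of the set with a known GC content had a median of 40.9% GC in their exons, and 27 of them lay below the median of 48.0% for all tested genes, so the slopes touch this set. Values after removing each library's GC trend are given beside the results they change.

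A gene was called changed where its adjusted p did not exceed 0.05, its log2 fold change was 0.4 or more in size, and its mean passed 1 FPKM in the treated group (in either line for the comparison of untreated lines). Fold changes and p-values are from limma-voom fits of the counts, with Benjamini-Hochberg adjustment over all genes tested, and each fold change is given ± SE. Levels are in FPKM. SRSF12, with 1 to 44 counts per library, passed the filter on low counts in PANC1 only, so 34 genes of the set were tested in MiaPaCa2 and 35 in PANC1.

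Before treatment, levels per length of transcript spanned a wide range. In untreated MiaPaCa2, HNRNPH1 was highest, at 935 and 927 FPKM, followed by HNRNPA2B1 at 756 and 728 and HNRNPC at 720 and 719. In untreated PANC1, HNRNPC stood at 756 and 757 FPKM and HNRNPA2B1 at 662 and 887, and these neighbours overlapped. Among SR proteins the highest level was that of SRSF5 in MiaPaCa2 (294 and 261 FPKM) and of SRSF2 in PANC1 (245 and 293), with SRSF9 beside it (257 and 245). The CLK kinases were lower, from CLK4 at 4.36 and 4.58 FPKM to CLK3 at 56.3 and 56.6 in untreated MiaPaCa2. SRSF8, by the identifier with counts, did not exceed 2.38 FPKM and SRSF12 did not exceed 1.08 in any library.

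In the untreated lines, 11 of 35 genes were lower and 2 were higher in PANC1 than in MiaPaCa2, where 52.2% of all genes tested were called (24.3% lower and 27.9% higher). HNRNPA1, which binds exonic silencers and opposes SRSF1, was at 204 and 196 FPKM in MiaPaCa2 and at 91.1 and 127 in PANC1, without overlap (log2 difference -1.04 ± 0.13, adjusted p = 1.3e-05). HNRNPAB, a relative of HNRNPD, was at 267 and 258 FPKM against 131 and 143 (-0.98 ± 0.07, adjusted p = 2.9e-08). HNRNPH1, which binds runs of G, was at 935 and 927 FPKM against 313 and 488 (-0.87 ± 0.13, adjusted p = 4.1e-05). The other genes lower in PANC1 were SRSF1, SRSF3, SRSF5, SRSF7, SRSF11, CLK1, CLK2 and HNRNPUL1, with log2 differences from -0.83 to -0.41.

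HNRNPF, which also binds runs of G, went the other way, at 141 and 146 FPKM in MiaPaCa2 and 231 and 236 in PANC1 (0.70 ± 0.07, adjusted p = 6.6e-07). The second gene called higher was SRSF8 (0.48 ± 0.19, adjusted p = 0.0384). SRSF2 (0.22) and SRSF9 (0.38) were also higher at adjusted p of 0.00685 and 0.00144, below the fold required, and with the GC trends removed they were at -0.01 and 0.18 (adjusted p of 0.937 and 0.0648). The median of the set was -0.25, against 0.06 for all genes. Removing the GC trends moved the median of all genes to -0.24 and that of the set to -0.39, with 17 of 34 genes lower and 0 higher, where 57.7% of all genes were then called (36.0% lower and 21.7% higher). HNRNPF was at 0.39 ± 0.08 in that fit, so its higher level was kept but fell short of the fold. Of all genes called, 53.4% were higher in PANC1 in the counts as deposited and 37.5% after the correction.

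Gemcitabine lowered most of the set in MiaPaCa2. Of 34 genes tested, 24 were called lower and 0 higher, where 29.5% of all genes tested were called (14.6% lower and 14.9% higher). The median log2 change was -0.59 for the set and -0.01 for all genes, and 33 of 34 values were below 0. Summed over the 35 genes, the share of the library was 8630 and 8376 CPM (counts scaled to the library total) in the controls and 5734 and 5865 after gemcitabine. Bulk RNA cannot tell fewer cells of a kind from less RNA per cell. The plot of fold changes by gene and comparison shows these falls in its first column.

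**Figure D1:**
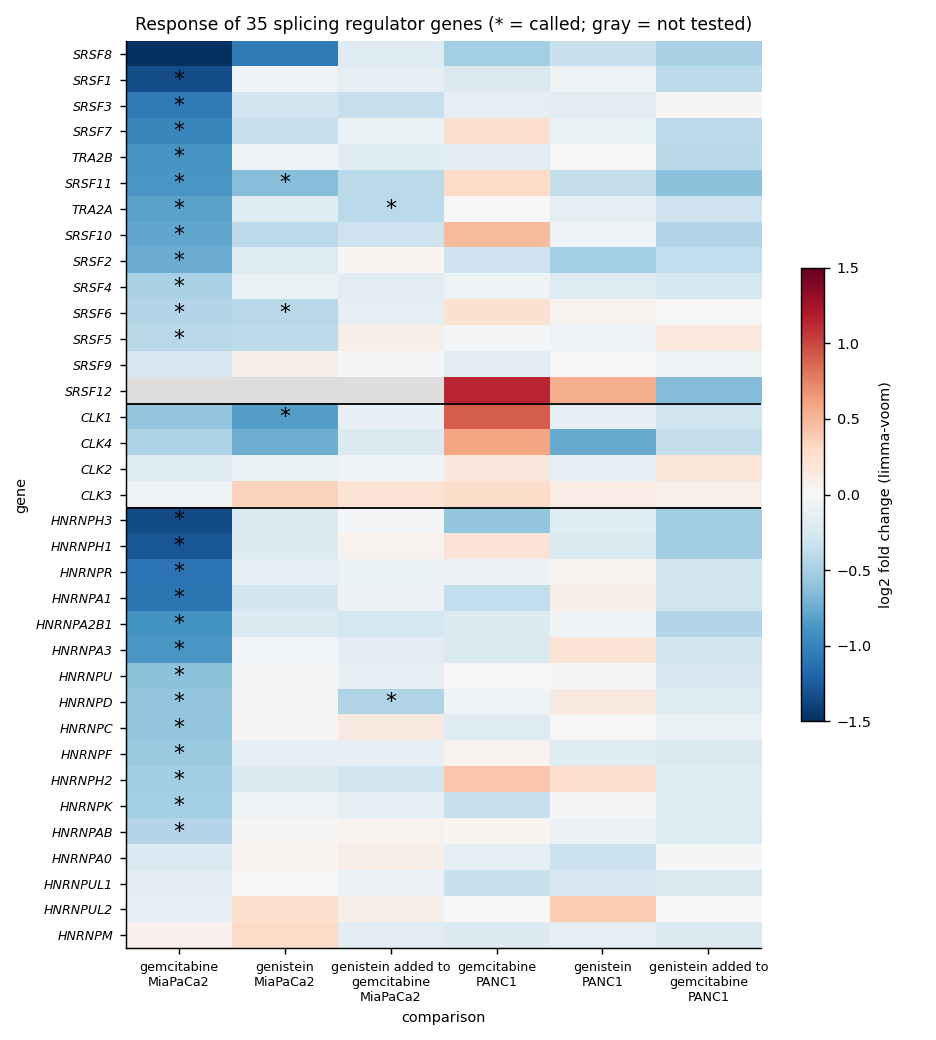
Log2 fold change (colour, limma-voom fit of counts) of the 35 genes (rows, in the blocks SR proteins with TRA2, CLK kinases and hnRNPs) in 6 comparisons (columns), with an asterisk for called genes and gray for genes not tested. Gemcitabine in MiaPaCa2 carries 24 of the 29 asterisks, and no PANC1 column carries any.

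Among SR proteins and TRA2 genes, 11 of 13 fell with gemcitabine in MiaPaCa2. SRSF1, the prototype SR protein and a proto-oncogene, was at 248 and 240 FPKM in the controls and at 106.8 and 110.5 after gemcitabine (log2 change -1.33 ± 0.08, adjusted p = 1.8e-06). Its treated libraries lay far below its controls. SRSF1 shares 32.7% of its exon bases with another protein-coding gene on the same strand, where strand cannot tell reads apart. SRSF3, a small SR protein that also couples splicing to RNA export, went from 177 and 172 FPKM to 92.7 and 90.4 (-1.06 ± 0.09, adjusted p = 7.5e-06). SRSF7, its closest relative, which carries a zinc knuckle, went from 173 and 181 FPKM to 93.6 and 90.5 (-0.98 ± 0.08, adjusted p = 7.8e-06). In both genes the replicates were close together and the groups did not overlap. By FPKM, 26.0% of all genes tested had both gemcitabine libraries below both controls in MiaPaCa2, and 41.6% had both above. TRA2B, which binds GAA-rich exonic enhancers, went from 237 and 217 FPKM to 134 and 141 (-0.89 ± 0.10, adjusted p = 2.9e-05), and its paralog TRA2A changed by -0.81 ± 0.10.

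Smaller falls were called for SRSF11 (-0.88 ± 0.11), SRSF10 (-0.77 ± 0.11), SRSF2 (-0.75 ± 0.07), SRSF4 (-0.48 ± 0.09), SRSF6 (-0.44 ± 0.09) and SRSF5 (-0.41 ± 0.10). SRSF10 acts as a splicing repressor when it is dephosphorylated, as after heat shock. SRSF2 shares 27.7% of its exon bases with MFSD11 on the opposite strand, and its reads can be told apart only where strand was used in counting, which the sources used here do not give. SRSF9 shares 43.6% of its exon bases with the gene GATC on the opposite strand. It was at 181 and 175 FPKM in the controls and at 159 and 182 after gemcitabine. Its groups overlapped, and its log2 change of -0.25 ± 0.09 was below the fold required (adjusted p = 0.0347). SRSF8 had the largest fitted change in the set (-1.49 ± 0.27, adjusted p = 0.0011) but lay under 1 FPKM after treatment, at 0.593 and 0.637, and was not called. Its second identifier, at 0 counts, was listed at 6.60 and 6.68 FPKM in the same libraries, so the lack of a call rests on which FPKM is used.

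None of the 4 CLK kinases, which phosphorylate SR proteins in the nucleus, was called after gemcitabine in MiaPaCa2 by limma-voom or edgeR, and DESeq2 called CLK1. CLK1 was at 25.7 and 15.9 FPKM in the controls and at 16.9 and 15.3 after gemcitabine, with overlapping groups (-0.58 ± 0.22, adjusted p = 0.0544). The values of CLK4 (-0.46 ± 0.21), CLK2 (-0.20 ± 0.10) and CLK3 (-0.07 ± 0.11) had adjusted p of 0.109, 0.153 and 0.622. With the GC trends removed, CLK2 passed the criteria (-0.43 ± 0.10, adjusted p = 0.00278). At an unadjusted p under 0.05, 1 of the 4 kinases passed, as did 48.1% of all genes.

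Among the hnRNPs, 13 of 17 fell with gemcitabine in MiaPaCa2. HNRNPH1 was at 935 and 927 FPKM in the controls and at 360 and 310 after gemcitabine (-1.28 ± 0.09, adjusted p = 2.8e-06). HNRNPH3, the shortest member of the H and F family, was at 139 and 126 FPKM and then at 58.6 and 57.0 (-1.34 ± 0.12, adjusted p = 1e-05). HNRNPR, which also takes part in mRNA transport in neurons, was at 94.5 and 88.8 FPKM and then at 49.5 and 47.0 (-1.11 ± 0.11, adjusted p = 2.1e-05). In all of these both treated libraries lay below both controls, as in 26.0% of all genes tested. HNRNPH2, another member of the H family, changed by less (-0.52 ± 0.12), as did HNRNPF (-0.56 ± 0.08).

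The A and B group fell as well. HNRNPA1 was at 204 and 196 FPKM in the controls and at 109.2 and 122.1 after gemcitabine (-1.09 ± 0.11, adjusted p = 2.3e-05). HNRNPA2B1 was at 756 and 728 FPKM and then at 445 and 444 (-0.90 ± 0.09, adjusted p = 1.5e-05). HNRNPA1 and HNRNPA3 (-0.87 ± 0.11) have many processed copies in the genome, so their counts are uncertain after the authors removed reads with more than 1 alignment. HNRNPA3 also shares 53.65% of its exon bases with NFE2L2 on the opposite strand. HNRNPU, HNRNPD, HNRNPC, HNRNPK and HNRNPAB were called with log2 changes from -0.62 to -0.44.

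HNRNPM, which promotes the mesenchymal splicing pattern of CD44, stood out among the abundant hnRNPs. It was at 362 and 385 FPKM in the controls and at 387 and 387 after gemcitabine (0.06 ± 0.07, adjusted p = 0.51), and the sign of its change turned with the GC correction (-0.13 ± 0.06, adjusted p = 0.0816). HNRNPUL1 (-0.18 ± 0.07), HNRNPUL2 (-0.12 ± 0.11) and HNRNPA0 (-0.23 ± 0.09) were not called either, at adjusted p of 0.0696, 0.4 and 0.0575. HNRNPM, HNRNPUL1 and HNRNPUL2 are among the genes of the set with the highest GC content, at 52.9%, 53.3% and 51.6%. HNRNPUL2 also shares 44.3% of its exon bases with HNRNPUL2-BSCL2 on the same strand.

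**Figure D2:**
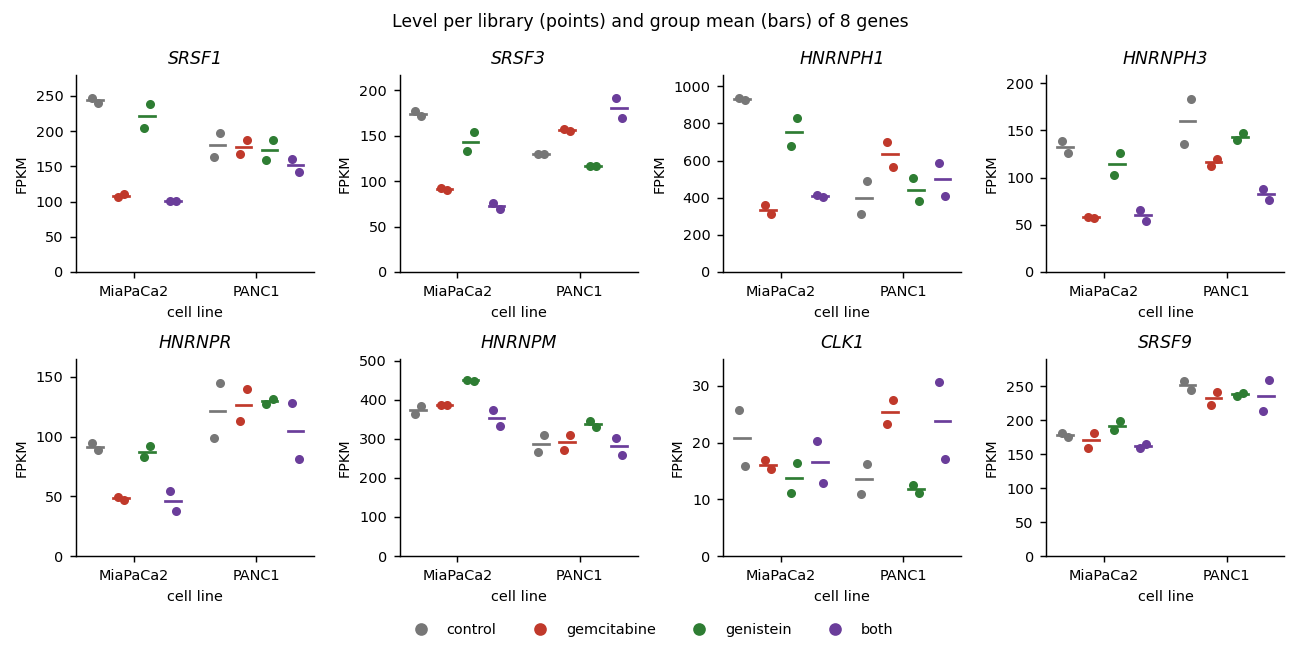
FPKM (vertical axis) of 8 genes in the 16 libraries, by cell line and treatment (colour), with each library as a point and the group mean as a bar. SRSF1, SRSF3, HNRNPH1, HNRNPH3 and HNRNPR were lower in the gemcitabine and co-treated libraries of MiaPaCa2 than in its controls, and HNRNPM and SRSF9 stayed close to theirs.

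Part of the falls moved with GC content. After the GC correction, 17 of 33 genes were lower and 0 higher, where 28.8% of all genes were called (16.3% lower and 12.4% higher), and the median of the set was -0.40 against -0.07 for all genes. Of the 24 genes called without the correction, 16 remained. The 8 lost were HNRNPC, HNRNPD, HNRNPH2, HNRNPK, HNRNPU, SRSF4, SRSF6 and SRSF10, all with values between -0.39 and -0.23 in that fit. HNRNPH1 moved little, from -1.28 to -1.24 ± 0.07. HNRNPR changed most among the genes named above, from -1.11 to -0.66 ± 0.07, and SRSF1 and HNRNPH3 kept values of -1.04 ± 0.07 and -1.07 ± 0.07.

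**Figure D3:**
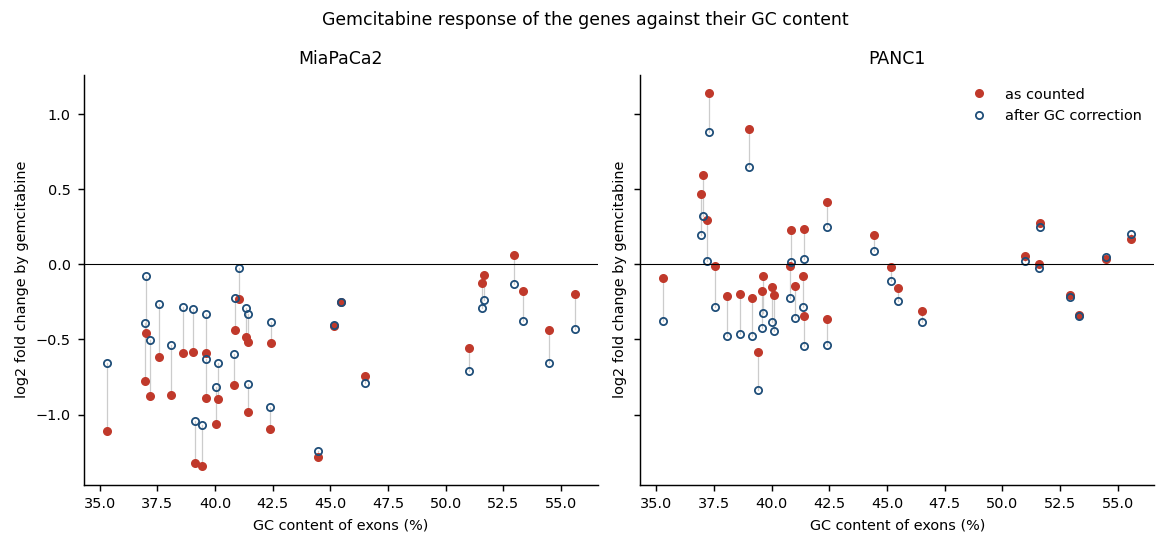
Log2 fold change by gemcitabine (vertical axis) against the GC content of the exons in percent (horizontal axis) for the genes of the set in MiaPaCa2 (left) and PANC1 (right), as counted (filled) and after removal of each library's GC trend (open), with a gray line joining the 2 values of a gene. Most genes under 43% GC moved up in MiaPaCa2 and down in PANC1, and HNRNPH1 stayed near -1.2 in MiaPaCa2.

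In PANC1, gemcitabine left no gene of the set called in either direction by limma-voom or by edgeR's quasi-likelihood test, where 7.52% of all genes were called (3.03% lower and 4.49% higher). At an unadjusted p under 0.05, 8 of 35 passed, against 25.6% of all genes. The Wald test of DESeq2 called 2 (CLK1 higher and HNRNPH3 lower), against 10.0% of all genes. The median of the set was -0.08, against 0.03 for all genes. The summed share was 6567 and 7877 CPM in the controls and 7067 and 7566 after gemcitabine, so the treated libraries lay between the controls. The PANC1 control replicates differed more than any other pair, with a chi-square per degree of freedom of 32, against 3.46 in the MiaPaCa2 controls. This value measures scatter beyond counting error and also rises with depth. Changes could thus be missed in PANC1, and the lack of calls does not show a lack of response. SRSF1 was at 163 and 198 FPKM in the controls and at 167 and 187 after gemcitabine (-0.22 ± 0.12, adjusted p = 0.305). HNRNPH1 was at 313 and 488 FPKM and then at 699 and 567, without overlap, but the fitted change in counts was only 0.20 ± 0.17 (adjusted p = 0.495).

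The lowest value in PANC1 was that of HNRNPH3, at 136 and 184 FPKM in the controls and 112.3 and 119.7 after gemcitabine (-0.58 ± 0.15, adjusted p = 0.0539). CLK1 was at 10.95 and 16.2 FPKM and then at 23.2 and 27.5, with both treated libraries above both controls (0.90 ± 0.28, adjusted p = 0.0868). By FPKM, 37.9% of all genes tested lay above both controls in this way. All 4 CLK kinases had values above 0 in PANC1, from 0.17 ± 0.12 (CLK2) to 0.90.

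The PANC1 controls had the widest gap in GC slope between replicates of a group in that line after the co-treated pair, and the calls in PANC1 moved with the correction for it. With the trends removed, 8 of 34 genes were lower and 1 higher, where 18.6% of all genes were called (9.32% lower and 9.29% higher). The 8 were SRSF1 (-0.48 ± 0.08), TRA2B (-0.42 ± 0.09), HNRNPA1 (-0.54 ± 0.08), HNRNPA2B1 (-0.44 ± 0.04), HNRNPA3 (-0.48 ± 0.07), HNRNPC (-0.46 ± 0.14), HNRNPH3 (-0.83 ± 0.07) and HNRNPK (-0.55 ± 0.07). The gene called higher was CLK1 (0.65 ± 0.12, adjusted p = 0.00418). Without PANC1 control replicate 2, SRSF10, CLK1 and HNRNPUL1 passed in the uncorrected fit, and without PANC1 control replicate 1 only HNRNPH3 did.

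The difference between the lines was itself tested. The gemcitabine response of 21 of 35 genes differed between PANC1 and MiaPaCa2 at an adjusted p of at most 0.05, of which 20 were higher in PANC1, where 15.3% of all genes passed (6.21% higher and 9.06% lower in PANC1). The median difference was 0.57 for the set and -0.08 for all genes. HNRNPH1 (1.39 ± 0.18, adjusted p = 0.00066), CLK1 (1.38 ± 0.39, adjusted p = 0.0334), SRSF10 (1.15 ± 0.25, adjusted p = 0.0111) and SRSF7 (1.12 ± 0.12, adjusted p = 0.0002) had the largest differences among these 21 genes. SRSF12 had a larger value (2.44) at 1 to 44 counts and was not called. SRSF1 differed by 1.01 ± 0.13 (adjusted p = 0.00056) and SRSF3 by 0.82 ± 0.12 (adjusted p = 0.00126). HNRNPM alone differed the other way (-0.37 ± 0.10, adjusted p = 0.0291). By family, 9 of 14 SR proteins and TRA2 genes, 1 of 4 CLK kinases and 11 of 17 hnRNPs were called.

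In the GC-corrected fit 17 of 34 genes were higher in PANC1 and 0 lower, where 26.5% of all genes passed (13.8% higher and 12.8% lower). HNRNPH1 was then at 1.33 ± 0.13, SRSF7 at 0.84 ± 0.10 and SRSF1 at 0.58 ± 0.11, and 15 of the 21 calls remained. HNRNPM was no longer called (-0.11 ± 0.08, adjusted p = 0.348). Of all genes called, 40.7% were higher in PANC1 without the correction and 51.9% with it. The count also depended on single libraries. It was 6 without MiaPaCa2 control replicate 1 or PANC1 gemcitabine replicate 2, 7 and 10 without MiaPaCa2 gemcitabine replicates 1 and 2, and 9 without MiaPaCa2 control replicate 2, with every call higher in PANC1. SRSF1, SRSF3, SRSF6, SRSF7, HNRNPF and HNRNPH1 were called in all 8 fits that left out 1 library, whereas CLK1 was called only without PANC1 control replicate 2.

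**Figure D4:**
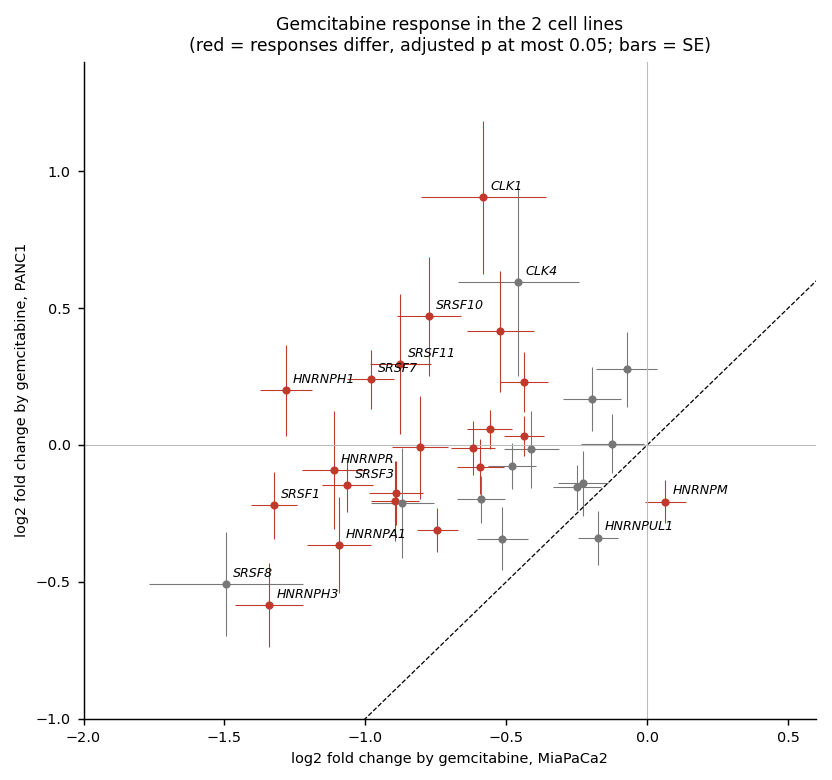
Log2 fold change by gemcitabine in MiaPaCa2 (horizontal axis) and PANC1 (vertical axis) for 34 genes, with SE as bars, the dashed line marking equal responses and red marking genes whose responses differed between the lines. Most genes lie above the dashed line, and HNRNPM and HNRNPUL1 lie below it.

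Genistein alone changed few of these genes, in MiaPaCa2 a share near that of all genes. In MiaPaCa2, 3 of 34 were called lower and 0 higher, where 8.3% of all genes were called (4.13% lower and 4.17% higher). CLK1 was at 25.7 and 15.9 FPKM in the controls and at 11.1 and 16.3 after genistein, and its groups overlapped (-0.83 ± 0.23, adjusted p = 0.0366). SRSF11, an SR-related protein that binds U2AF2, was at 73.4 and 79.7 FPKM and then at 40.8 and 50.7 (-0.63 ± 0.11, adjusted p = 0.00415). SRSF6, which binds exonic enhancers in MAPT and other genes, was at 67.5 and 66.7 FPKM and then at 45.7 and 49.5 (-0.41 ± 0.09, adjusted p = 0.0112). For the last pair of genes the groups did not overlap. Both genistein libraries lay below both controls by FPKM in 27.9% of all genes tested, and above them in 26.9%.

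Other SR proteins had values below the fold required, with SRSF10 at -0.40 ± 0.11, SRSF5 at -0.39 ± 0.10 and SRSF7 at -0.34 ± 0.08 (adjusted p of 0.0354, 0.0239 and 0.0204). HNRNPM was at 362 and 385 FPKM in the controls and at 450 and 448 after genistein (0.28 ± 0.07, adjusted p = 0.0252), again below the fold. Removing the GC trends left only CLK1 called (-0.61), with SRSF11 and SRSF6 at -0.31 and -0.26, where 11.2% of all genes were called (4.85% lower and 6.37% higher). The count was 0 without MiaPaCa2 control replicate 1, 1 without control replicate 2 or genistein replicate 1 (SRSF11 each time), and 6 without genistein replicate 2.

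In PANC1, genistein left no gene of the set called by limma-voom or edgeR, where 0% of all genes were called lower and 0.0591% higher. DESeq2 called SRSF2, as it did 4.36% of all genes, and 5 of 35 genes passed at an unadjusted p under 0.05, against 19.2% of all genes. SRSF2, an SR protein recurrently mutated in myeloid neoplasms, was at 245 and 293 FPKM in the controls and at 208 and 220 after genistein (-0.51 ± 0.08, adjusted p = 0.0915). In the GC-corrected fit SRSF2 (-0.67) and CLK4 (-0.76) were called lower, where 7.4% of all genes were called (3.21% lower and 4.19% higher). The test of the difference between the lines called 0 of 35 genes with limma-voom and edgeR (0.0336% of all genes, 0.0056% higher and 0.028% lower), 7 at an unadjusted p under 0.05 (11.5% of all genes), and SRSF2 and HNRNPM, both lower in PANC1, with DESeq2 (1.04% of all genes) or after the GC correction, where the latter called 2.73% of all genes (0.852% higher and 1.88% lower).

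Genistein on top of gemcitabine changed few of these genes in MiaPaCa2, a share near that of all genes. HNRNPD, which binds AU-rich elements, was at 117 and 127 FPKM with gemcitabine and at 89.4 and 84.0 in co-treatment (-0.45 ± 0.09, adjusted p = 0.00952). TRA2A was at 48.3 and 46.0 FPKM and then at 43.9 and 38.5 (-0.41 ± 0.11, adjusted p = 0.0383). The log2 ratio of its FPKM was smaller than this fitted change of counts, at -0.20. These 2 of 34 genes were called lower and 0 higher, where 5.88% of all genes were called (1.83% lower and 4.05% higher). Neither was called in the GC-corrected fit (-0.34 for both), where 9.91% of all genes were (4.18% lower and 5.73% higher). The count was 0 without either gemcitabine library, 1 without co-treatment replicate 2 (HNRNPD) and 6 without co-treatment replicate 1.

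In PANC1 no gene of the set was called when genistein was added to gemcitabine, where 0.0177% of all genes were called (0.00591% lower and 0.0118% higher), with 0 calls also by edgeR and DESeq2. At an unadjusted p under 0.05, 12 of 35 genes passed, against 13.4% of all genes. The values leaned downwards, with 29 of 35 below 0 and a median of -0.26 against -0.02 for all genes. SRSF2 had an adjusted p of 0.143 (-0.37 ± 0.09) and SRSF7 one of 0.219 (-0.39 ± 0.11). The co-treated libraries had GC slopes of -0.16 and 0.23. With the trends removed, the median was -0.16 and SRSF2 (-0.43) and HNRNPH1 (-0.53) were called lower, where 7.63% of all genes were called (3.47% lower and 4.16% higher). The interaction between the drugs was called for 0 of 34 genes in MiaPaCa2 (0.0249% of all genes, 0.00623% higher and 0.0187% lower) and 0 of 35 in PANC1 (0% of all genes), by limma-voom, edgeR and DESeq2 alike, with 4 and 2 at an unadjusted p under 0.05 (8.38% and 4.92% of all genes). HNRNPM passed in MiaPaCa2 in the GC-corrected fit (-0.45), where 0.578% of all genes did (0.254% higher and 0.324% lower), and no gene of the set did in PANC1 (0.0121% of all genes).

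Genes picked for their falls with gemcitabine also lay below the controls in co-treated MiaPaCa2, which received gemcitabine too. Co-treatment was not tested against control. By FPKM, 30.7% of all genes tested had both co-treated libraries below both controls, and 40.7% had both above. SRSF1 was at 100.7 and 100.8 FPKM, SRSF3 at 75.7 and 69.6, HNRNPH1 at 414 and 405, and HNRNPH3 at 65.5 and 54.3. The summed share of the 35 genes was 7406 and 7998 CPM after genistein alone and 5533 and 5057 in co-treatment.

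Isoforms that carry poison exons were examined next, because the splicing of these exons sets the level of several SR proteins. Isoform levels are Cufflinks estimates, with types from GENCODE v44 on GRCh37. Of 427 isoforms listed for the set, 54 were typed as targets of nonsense-mediated decay, 110 as retaining an intron and 191 as coding. The exon that holds the premature stop is shown for isoforms of 4 SR genes, from its first base to the stop codon, which is in capitals and ends the annotated reading frame of that isoform.
SRSF3-203, chr6:36567598-36567631, + strand: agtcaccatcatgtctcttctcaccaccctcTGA
SRSF6-202, chr20:42087793-42087944, + strand: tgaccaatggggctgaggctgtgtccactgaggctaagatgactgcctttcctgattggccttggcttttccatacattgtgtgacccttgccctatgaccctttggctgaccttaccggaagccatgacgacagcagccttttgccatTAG
SRSF7-204, chr2:38976461-38976488, - strand: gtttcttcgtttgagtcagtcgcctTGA
TRA2B-205, chr3:185649560-185649640, - strand: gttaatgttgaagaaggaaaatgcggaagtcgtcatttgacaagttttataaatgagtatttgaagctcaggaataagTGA
These exons are 456, 268, 449 and 276 bases long in SRSF3, SRSF6, SRSF7 and TRA2B, of which 34, 152, 28 and 81 bases are shown.

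The decay isoform of SRSF3 lay below its controls after gemcitabine in MiaPaCa2 and above them in PANC1, a difference that was not tested for this isoform. SRSF3-203 was at 105.3 and 102.2 FPKM in the MiaPaCa2 controls and at 57.3 and 51.3 after gemcitabine. The coding isoforms of SRSF3 went from 65.1 and 64.0 FPKM to 31.6 and 35.6 there, so both kinds were lower. In PANC1, SRSF3-203 was at 83.1 and 72.1 FPKM in the controls, at 115.9 and 108.4 after gemcitabine, and at 147 and 134 in co-treatment. The coding isoforms were at 43.8 and 53.9 FPKM, then at 35.3 and 40.5, and at 38.2 and 31.3 in co-treatment. In PANC1 the decay isoform was thus higher and the coding isoforms were lower with gemcitabine, without overlap. Lack of overlap was common with 2 libraries a group. By gene FPKM, 37.9% of all genes tested had both gemcitabine libraries above both controls in PANC1, and 15.5% had both below.

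The gene totals of SRSF3 differ by measure for the same libraries. In PANC1 its FPKM went from 130 and 130 to 157 and 156 with gemcitabine, a log2 ratio of 0.27, whereas the fitted change of its counts was -0.15 ± 0.10. Across all genes above 1 FPKM the median log2 FPKM ratio was 0.13 in this comparison, and 7 of 34 genes of the set had opposite signs in the 2 measures.

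Other decay isoforms were also higher in PANC1 after gemcitabine, where the gene FPKM of 37.9% of all genes tested was higher without overlap. SRSF6-202 was at 41.2 and 38.6 FPKM in the controls and at 56.4 and 52.8 after gemcitabine, SRSF7-204 at 4.10 and 8.06 and then 12.3 and 13.6, and TRA2B-205 at 9.09 and 15.3 and then 21.0 and 19.8. In MiaPaCa2, SRSF6-202 went from 45.0 and 45.0 FPKM to 38.9 and 36.7 and TRA2B-205 from 10.5 and 17.3 to 7.62 and 6.87, while the groups of SRSF7-204 overlapped (9.70 and 7.95, then 8.65 and 10.0). The coding isoforms of SRSF7 went from 133 and 145 FPKM to 69.3 and 65.7 in MiaPaCa2 and from 122 and 118 to 139 and 136 in PANC1. These isoforms were picked after their isoform values were seen, so the values are a description.

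**Figure D5:**
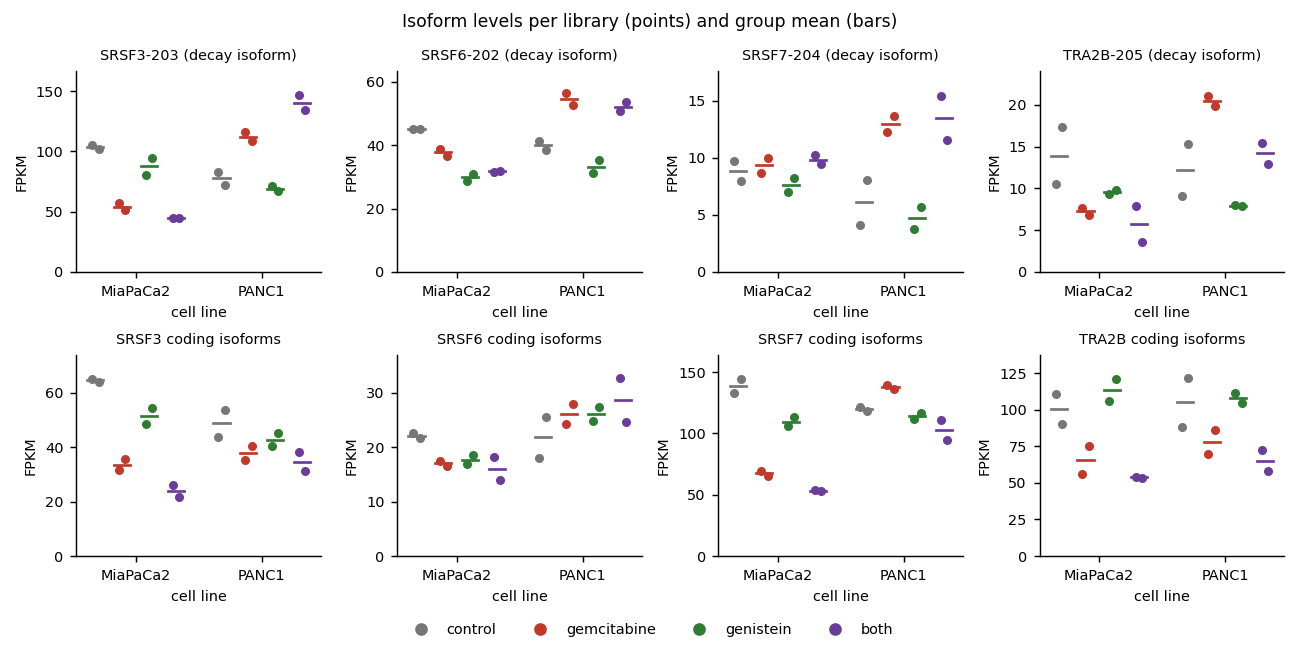
FPKM (vertical axis) of 4 isoforms typed as decay targets (top) and of the summed coding isoforms of the same genes (bottom) in the 16 libraries, by cell line and treatment (colour), with libraries as points and group means as bars. SRSF3-203 was lower than the control after gemcitabine in MiaPaCa2 and higher in PANC1.

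A test of the ratio of decay and intron-retaining isoforms to coding isoforms found no gene of the set. Of 27 genes tested in each comparison, 0 were called by limma in any of 7 comparisons, where 0.0151% of all genes were called for gemcitabine in MiaPaCa2, 0% for gemcitabine in PANC1 and 1.18% between the untreated lines. At an unadjusted p under 0.05, 4 passed for gemcitabine in MiaPaCa2 and 5 in PANC1, against 7.22% and 4.61% of all genes. The 5 in PANC1 went both ways, with log2 ratios of 1.21 for SRSF2, 1.13 for SRSF10, 0.91 ± 0.29 for SRSF3, -1.26 for HNRNPK and -2.55 for CLK4 (limma, adjusted p of 0.785 to 0.999). Of the 4 in MiaPaCa2, SRSF2 (-0.86), TRA2A (-0.76) and HNRNPM (-1.95) had lower ratios and SRSF1 a higher one, and the median of the set was -0.18 against -0.14 for all genes. In MiaPaCa2 the decay and intron-retaining isoforms of SRSF1 made up 42.3% and 45.9% of its typed level in the controls and 63.6% and 58.9% after gemcitabine (log2 ratio higher by 1.002 ± 0.311, limma, adjusted p = 0.588). Estimates of isoforms from short single-end reads are uncertain, and their reads could not be counted here.

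The promoters of the set were searched for 6 short motifs in RefSeq sequence of GRCh38.p14. The window was the 250 bases before each start site, on both strands, for 46 start sites of 32 genes. The CCAAT box (CCAAT) was in 39.1% of them and in 32.0% of 35116 windows of all genes. The GC box (GGGCGG) was in 58.7% and 42.6%, the core of ETS factor sites (CCGGAA) in 15.2% and 14.5%, and the TATA box (TATAAA) in 13.0% and 10.7%. An E2F motif (TTTCCCGC) was in 3 of the 46 windows, or 6.5%, and in 1.4% of all, and the NRF1 motif was in 0 of the 46 and in 1.0% of all. None of these motifs lies within another on either strand.

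The windows of SRSF3 and HNRNPR, which fell with gemcitabine in MiaPaCa2, and of HNRNPM, which was not called, are shown as examples with a listed start site each. Capitals mark matches to the 6 motifs on either strand.
SRSF3, chr6:36594112-36594361, + strand: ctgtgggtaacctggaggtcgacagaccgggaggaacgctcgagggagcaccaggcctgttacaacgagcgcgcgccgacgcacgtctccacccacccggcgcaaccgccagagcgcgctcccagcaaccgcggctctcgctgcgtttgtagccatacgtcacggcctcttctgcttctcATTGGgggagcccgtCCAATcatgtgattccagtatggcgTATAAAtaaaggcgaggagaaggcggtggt
HNRNPR, chr1:23344285-23344534, - strand: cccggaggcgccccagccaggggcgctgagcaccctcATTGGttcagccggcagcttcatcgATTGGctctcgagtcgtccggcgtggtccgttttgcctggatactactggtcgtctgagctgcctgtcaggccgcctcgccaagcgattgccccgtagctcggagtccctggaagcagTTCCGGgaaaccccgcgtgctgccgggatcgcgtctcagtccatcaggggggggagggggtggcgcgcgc
HNRNPM, chr19:8444725-8444974, + strand: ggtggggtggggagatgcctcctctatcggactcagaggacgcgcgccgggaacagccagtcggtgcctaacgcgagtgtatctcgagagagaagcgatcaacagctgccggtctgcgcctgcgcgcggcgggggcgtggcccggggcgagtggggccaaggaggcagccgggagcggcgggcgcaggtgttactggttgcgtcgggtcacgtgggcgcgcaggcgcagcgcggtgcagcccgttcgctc
SRSF3 held 2 CCAAT boxes and 1 TATA box, HNRNPR held 2 CCAAT boxes and 1 ETS core, and HNRNPM held no match, nor did SRSF1.

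Other genes of the splicing machinery were counted from lists chosen with earlier results of these data known. After gemcitabine in MiaPaCa2, 11 of 19 other hnRNP and related RNA-binding genes were lower and 0 higher, with a median of -0.46, led by HNRNPDL (-1.20 ± 0.11), SYNCRIP (-0.98 ± 0.10) and TARDBP (-0.78 ± 0.10). Of 23 other SR-like proteins and splicing regulators tested, 16 were lower and 1 higher, with a median of -0.62, led by RSRC1 (-1.30 ± 0.15), RBM39 (-1.13 ± 0.11) and LUC7L3 (-1.09 ± 0.15). Of 4 kinases of SR proteins outside the CLK family, PRPF4B (-0.97 ± 0.12), DYRK1A (-0.48 ± 0.11) and SRPK1 (-0.46 ± 0.10) were lower. Of 30 core spliceosome genes 4 were lower and 0 higher, beside 14.6% and 14.9% of all genes, with a median of -0.11, among them SF3B1 (-0.61 ± 0.11), the branch point protein recurrently mutated in cancer. In the decay pathway that removes poison-exon mRNAs, 2 of 10 genes were lower, the kinase SMG1 (-0.80 ± 0.14) and UPF2 (-0.62 ± 0.13).

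After gemcitabine in PANC1, ESRP2 (-0.71 ± 0.17), an epithelial splicing factor, was the gene called lower of 25 SR-like proteins and regulators, and UPF3B (1.12 ± 0.28) was the gene called higher of 10 decay genes. None was called in the other lists, beside 3.03% of all genes lower and 4.49% higher. The responses differed between the lines for 7 of 19 other hnRNP genes, 10 of 25 SR-like genes and 2 of 4 kinases, all higher in PANC1. They also differed for 3 decay genes higher and 1 lower of 10, and for 1 higher and 1 lower of 30 core genes. Of all genes, 6.21% passed this test as higher and 9.06% as lower in PANC1. Genistein in MiaPaCa2 lowered 6 of 23 SR-like genes, led by LUC7L3 (-1.24 ± 0.16), SREK1 (-0.85 ± 0.14) and RBM39 (-0.71 ± 0.11). It also lowered the kinase PRPF4B (-0.59 ± 0.12) and the core gene SNRPE (-0.43 ± 0.13). The decay factor SMG5 (0.73 ± 0.09) and CIRBP (0.40 ± 0.09), the cold-inducible RNA-binding protein, were higher. Of all genes, 4.13% were called lower and 4.17% higher there. Added to gemcitabine in MiaPaCa2, genistein lowered MBNL2 (-0.84 ± 0.24), PNN (-0.55 ± 0.12) and SRRM1 (-0.50 ± 0.10), SYNCRIP (-0.49 ± 0.10) and UPF2 (-0.52 ± 0.14). It raised CIRBP (0.42 ± 0.09), beside 1.83% of all genes lower and 4.05% higher.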

How the data were processed

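RNA was measured in 16 libraries (2 cell lines, 4 treatments, 2 replicates), grouped by the labels. Per the labels, the libraries were TruSeq Stranded with poly-A selection. By the study's methods and the submitters' processing notes, the authors mapped short single-end reads to GRCh37 with TopHat2 2.0.4, used SAMtools and removed reads with multiple alignments with Picard 1.29, and deposited raw counts per gene from HTSeq 0.6.1 and FPKM per gene and per isoform from Cufflinks 2.1.1. The annotation release and strand setting are not given in the sources used here. Library totals were 12943482 to 31991860 counts, so genes at few counts, such as SRSF12, carry wide counting error.

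Counts of each line (8 libraries, or 16 between lines) were filtered with filterByExpr, TMM-normalized and fitted with limma-voom (limma 3.58.1, edgeR 4.0.16, R 4.3.3), with p-values adjusted by Benjamini-Hochberg over all genes tested. Interactions and response differences were called by adjusted p alone. Of FPKM rows that shared a gene identifier the first was kept, and 176 identifiers without FPKM were set to 0. Isoform ratios were log2 of summed FPKM plus 0.1, tested with limma in genes with a summed mean above 1 FPKM. GC content of exons, gene overlaps and isoform types came from GENCODE v44 lifted to GRCh37, which need not be the authors' release. The GC correction removed a loess trend (span 0.3, degree 1) from each library. Scripts were first tested on simulated data. Alternatives included edgeR's quasi-likelihood test and DESeq2 1.42.0. Up to 3 of the largest called genes per list and comparison were named. The members and lists were chosen with earlier results of these data known.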

Additional observations from a re-analysis of the deposited data

Results flagged for a closer look

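The gemcitabine response of 21 genes differed between the lines, by a test of the difference itself (PANC1 minus MiaPaCa2, log2 scale, adjusted p of at most 0.05 over 17863 genes by limma-voom, where 15.3% of all genes passed in either direction). Among SR proteins and TRA2 genes the differences were 1.15 for SRSF10, 1.12 for SRSF7, 1.08 for SRSF11, 1.01 for SRSF1, 0.82 for SRSF3, 0.7 for TRA2A, 0.62 for TRA2B, 0.57 for SRSF6 and 0.34 for SRSF2. Among the kinases CLK1 differed by 1.38. Among the hnRNPs the differences were 1.39 for HNRNPH1, 0.93 for HNRNPR, 0.84 for HNRNPH2, 0.66 for HNRNPH3, 0.63 for HNRNPA1, 0.59 for HNRNPA2B1, 0.52 for HNRNPF, 0.51 for HNRNPU, 0.42 for HNRNPD, 0.37 for HNRNPAB and -0.37 for HNRNPM. The GC slopes of the control libraries moved with this contrast, and with each library's trend removed HNRNPD, HNRNPH3, HNRNPM, HNRNPU, SRSF6 and TRA2B were no longer called, while CLK2 and CLK3 were.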

How the results depend on the processing

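Every alternative run called 17 to 24 of the genes lower and none higher after gemcitabine in MiaPaCa2, though not always the same genes: 16 of the 24 reported calls remained after the GC correction, and DESeq2's 24 included CLK1 and lacked SRSF5. Apart from fits that left out a library, 96 of 120 counts under another setting stayed within 1.5 times the reported count. Of 194 values of the most changed genes, 153 kept their call, 41 lost it and 0 changed sign. These genes were picked for their large changes in the same data, which makes a change of sign unlikely. The small gemcitabine value of HNRNPM in MiaPaCa2 did change sign with the GC correction. The cause was not tested where counts moved.

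Differences in the gemcitabine response fell from 21 to 12 genes without the low-count filter, which tests more genes. After the GC correction, with or without the replicate block, 2 genistein response differences appeared, 1 genistein call remained in MiaPaCa2, 0 calls remained for genistein added in MiaPaCa2, and 2 appeared for genistein added in PANC1. The GC correction alone gave 9 gemcitabine calls and 2 genistein calls in PANC1 and 1 interaction in MiaPaCa2, and with the replicate block it gave 8, 1 and 0. DESeq2's Wald test gave 2 response differences for genistein, 2 gemcitabine calls in PANC1 and 1 genistein call in PANC1, and its size factors gave 1 gemcitabine call in PANC1. Library size alone gave 5 genistein calls in MiaPaCa2, limma-trend on FPKM gave 0 there and 0 for genistein added in MiaPaCa2, and no filter or the replicate block gave 1 for the latter. A pseudocount of 1 gave 1 isoform ratio call between the untreated lines, HNRNPA1. That was a smaller share of the set than was called among all genes tested, where calls also rose with this pseudocount.

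Leaving out each replicate in turn, 72 of 88 counts stayed within 1.5 times the reported count and 16 moved. Counts ranged from 22 to 24 for gemcitabine in MiaPaCa2, 6 to 24 for the gemcitabine response difference, 11 to 17 between untreated lines, 0 to 6 for genistein in MiaPaCa2, 0 to 6 for genistein added there, 0 to 3 for gemcitabine in PANC1 and 0 to 1 for the genistein response difference. A group with 1 library left was assumed to vary like the others. Replicate numbers did not pair libraries across groups, with correlations of deviations from -0.57 to 0.33. The replicate block gave 24 gemcitabine calls in MiaPaCa2, 17 response differences and 12 between lines, all among the reported ones, and 2 genistein calls in MiaPaCa2.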
